A study of Mus musculus with 16 samples.

Results

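The comparison covers 8 of the 16 lung arrays of the series, chosen by their sample titles: 4 from ARF-DTR females aged 12 months that were given diphtheria toxin (DT), and 4 from ARF-DTR females of the same age that were given saline (PBS). ARF-DTR mice carry a receptor for the toxin under the control of the Arf promoter, so that cells in which this promoter is active can take the toxin up. Intraperitoneal DT doses of 50 microgram per kg were spaced 2 weeks apart for 1 month. Another 4 arrays came from wild type females aged 12 months, which lack the transgene, 2 given PBS and 2 given DT, and serve as a reference below. Titles and treatment labels agree on these 4, and were used, but the free-text description of wild type PBS replicate 1 mentions DT while those of both wild type DT samples do not. The last 4 arrays came from uninjected ARF-DTR females aged 2 months and entered none of the comparisons. They did enter the estimate of the spread, the filter on probes, the choice of a probe for each gene and quantile normalization. Whether each sample is a mouse of its own is not stated in the labels, and a p-value here reflects only how far samples of a group lie apart, part of which may be technical. The receptor follows a promoter and not a cell type, and the arrays do not show which lung cells took up the toxin.

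Arf, encoded at Cdkn2a, stabilises p53, and its promoter is active in senescent cells, which have stopped dividing and often secrete inflammatory factors. DT enters a cell through its receptor, the membrane form of Hbegf, and inactivates the elongation factor Eef2, which stops protein synthesis and kills the cell. Mouse cells without a transgenic receptor bind the toxin poorly. In the lung, gas crosses thin alveolar type 1 cells and the capillary wall, alveolar type 2 cells make surfactant, and macrophages take up debris and dead cells.

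All levels are log2 signals relative to the 75th percentile of the array, so that a difference of 1 is a 2-fold difference, and ± after a change is the standard error of the limma fit. The share of probes well above background was 61.7% to 66.9% on the 8 arrays, and the small number of arrays limits the precision. All 4 PBS arrays lay on slide 1 and all 4 DT arrays on slide 2, so DT and slide cannot be told apart in the direct comparison. The wild type arrays shared slide 2 with the DT arrays but lay in its row 2, while the DT arrays filled row 1, so row and group cannot be told apart within that slide. DT-treated ARF-DTR against wild type PBS therefore compares within a slide but across genotypes, while wild type PBS against ARF-DTR PBS holds slide and genotype without DT. The direct change is the sum of these 2 changes, which share arrays with it, so their values are given side by side and none is separate support for another. The median probe differed by 0.15 (log2) between arrays of the same group, by 0.18 between groups of a slide and by 0.27 between slides.

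Of 25574 genes, 7494 (29.3%) passed an adjusted p under 0.05 in DT against PBS, 4054 (15.9%) higher and 3440 (13.5%) lower with DT. These shares are the background for the counts of list genes that rose and fell below. Most of these changes were small, with a median of 0.34 for the higher and -0.51 for the lower genes. A change of at least 2-fold with arrays that did not overlap was met by 57 genes (0.223%) that rose and 332 (1.3%) that fell. Of all calls 54.1% were higher, against 83.2% after scaling to the array median, which shifted the median of all genes to 0.18, and 74% with normexp background correction. The 57 rises became 106 without PBS replicate 1, 89 without PBS replicate 4, 104 without DT replicate 2 and 38 without DT replicate 3, 151 after scaling to the array median, 88 after quantile normalization and 30 with normexp. The 332 falls became 189, 219 and 72 under these 3 settings. Against wild type PBS of the same slide, 542 genes (2.12%) were higher and 867 (3.39%) lower in DT-treated ARF-DTR, and 887 were higher and 497 lower after scaling to the array median. Without DT, 3253 genes (12.7%) were higher and 2794 (10.9%) lower in wild type PBS than in ARF-DTR PBS, or 4332 and 1933 after scaling to the array median and 5974 and 1883 with normexp. Of the 57 strong rises, 28 were also at least 2-fold higher within the slide and 19 were called there, and 1 was called in the same direction without DT. Of the 332 strong falls, 71 were at least 2-fold lower within the slide and 44 were called there, whereas 179 were called in the same direction without DT. The within-slide calls rest on 2 wild type PBS arrays: their number fell from 1409 to 202 without wild type PBS replicate 1, to 355 without replicate 2, to 564 without DT replicate 4 and to 771 without DT replicate 3. Of 51 genes named below that were called within the slide, 12 kept the call without either wild type PBS array: Sprr1a, Ednrb, Fibin, Chst1, Kitl, Kif26b, Slc5a12, Tmeff2, Xpnpep2, Rspo3, Cdkn1a and Dbp.

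Transcripts of the locus that drives the receptor did not fall beyond the spread. Cdkn2a, which encodes Arf and a further cell cycle inhibitor, lay at -2.03, -2.29, -1.96 and -1.79 with PBS and at -1.55, -2.18, -1.19 and -1.78 with DT. The groups overlapped, and the change of 0.34 ± 0.27 had an adjusted p of 0.365. Whether the probe reads Arf, the other product or both was not tested. Its neighbour Cdkn2b, an inhibitor of cyclin-dependent kinases, lay between 3.29 and 3.49 with PBS and between 3.03 and 3.20 with DT, a fall of 0.29 ± 0.07 (adjusted p = 0.0115), while a second probe gave -0.17 (adjusted p = 0.0922). After scaling to the array median this change was -0.11 (adjusted p = 0.378), and wild type PBS arrays were lower still at 2.98 and 2.99. Cdkn1a, the p53 target that arrests the cycle, was at 1.74 to 2.02 with PBS and 1.93 to 2.21 with DT, a change of 0.18 ± 0.11 that did not pass (adjusted p = 0.234). After scaling to the array median it passed, with 0.36 (adjusted p = 0.00827). The other 2 Cdkn1a probes, both dimmer, gave 0.85 (adjusted p = 0.00194 over all probes) and -0.44 (adjusted p = 0.208). Within the slide it was higher in DT-treated ARF-DTR than in wild type PBS, at 1.02 and 1.21, by 0.98 ± 0.14 (adjusted p = 0.00371). Of 17 cell cycle inhibitors and senescence regulators, 4 rose and 2 fell, against 15.9% and 13.5% of all genes. Their median was 0.05 against 0.004 over all genes. The median was -0.02 after quantile normalization, and 2 rose without PBS replicate 2 or 3 or DT replicate 3 or 4.

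The machinery of the toxin changed little. Mouse Hbegf lay at 2.33 to 2.56 with PBS and 2.33 to 2.93 with DT (0.18 ± 0.12, adjusted p = 0.283), and whether its probe reads the transgene was not tested. Eef2, the protein that DT inactivates, was at 6.01 to 6.29 with PBS and 6.42 to 6.58 with DT, a rise of 0.30 ± 0.07 (adjusted p = 0.00822). Cd9, which assists the receptor, rose by 0.24 ± 0.06 (adjusted p = 0.0146), but neither call held after quantile normalization, with 0.03 for Eef2 and 0.00 for Cd9. Of 13 genes of toxin binding, entry and diphthamide synthesis, 4 rose and 1 fell, with a median of 0.08. Dnajc24, a diphthamide synthesis factor, rose by 0.31 ± 0.07 (adjusted p = 0.00467). The single fall, of Dph2, was 0.27 ± 0.07 (adjusted p = 0.0186) and lost its call without PBS replicate 2 or DT replicate 3, with adjusted p of 0.0554 and 0.058.

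Of 19 p53 targets 5 rose and 3 fell (median 0.11), against 15.9% and 13.5% of all genes. The number that rose was 3 without PBS replicate 3 or DT replicate 3 or 4. Within the slide 3 were higher and 2 lower (median 0.03). Bbc3, a p53 target that promotes apoptosis, lay between 0.96 and 1.32 with PBS and between 1.74 and 1.98 with DT, with no overlap, and rose by 0.69 ± 0.10 (adjusted p = 0.000568). The cyclin Ccng1 rose by 0.34 ± 0.08 (adjusted p = 0.00746). Among 24 genes of apoptosis and of the uptake of dying cells, 8 rose and 0 fell. This count was 4 without PBS replicate 2 or 3 or DT replicate 4, 3 without DT replicate 3, 4 after quantile normalization and 17 after scaling to the array median. Gas6, which bridges dying cells to phagocytes, was at 5.15 to 5.76 with PBS and 5.97 to 6.37 with DT (0.64 ± 0.12, adjusted p = 0.00295). Within the slide 1 of these 24 genes was higher and 0 were lower (median 0.09). The 24 include Bbc3 and Gas6, and their highest within-slide change was 0.405. Of 41 secreted factors of senescent cells, 7 rose and 4 fell, with a median of 0.13, against 15.9% and 13.5% of all genes. The number that rose was 2 to 4 without any 1 of PBS replicates 2, 3 and 4 and DT replicates 1, 3 and 4. Within the slide 1 was higher and 0 were lower (median 0.15). Csf2, a growth factor of alveolar macrophages, rose by 0.93 ± 0.17 (adjusted p = 0.00193) and the cytokine Tgfb1 by 0.46 ± 0.09 (adjusted p = 0.00349). Igfbp3, a carrier of insulin-like growth factors, fell by 0.58 ± 0.13 (adjusted p = 0.00574). Against wild type PBS of the same slide Bbc3, Ccng1, Gas6, Csf2, Tgfb1 and Igfbp3 were not called.

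Among genes with a proper symbol that were well above background on all PBS arrays, the largest rise was that of Sprr1a, a protein of the cornified envelope made by stressed epithelia. It lay at -3.26, -3.52, -3.58 and -3.20 with PBS and at -1.61, -1.42, -1.002 and -1.75 with DT. Every DT array was above every PBS array, by a mean of 1.95 ± 0.19 or 3.86-fold (adjusted p = 3.62e-05). The wild type arrays were at -2.99 and -3.25 with PBS and at -2.31 and -2.41 with DT, and the within-slide change was 1.68 ± 0.23 (adjusted p = 0.00355). Nnat, a small membrane protein of the endoplasmic reticulum, rose from between -1.89 and -1.65 to between -0.60 and 0.35, by 1.77 ± 0.23 (adjusted p = 0.000304), and by 1.27 ± 0.28 within the slide (adjusted p = 0.0231). Mybpc2, a myosin-binding protein of fast muscle, rose by 1.63 ± 0.27 (adjusted p = 0.00121). Bcan, a proteoglycan best known from brain matrix, rose by 1.25 ± 0.24 (adjusted p = 0.00258) and Slurp1, a secreted epithelial peptide, by 1.34 ± 0.30 (adjusted p = 0.00576). Aadac, an esterase, was well above background on 1 of 4 PBS arrays and on all 4 DT arrays, and rose by 1.84 ± 0.32 (adjusted p = 0.00156), a size that rests on PBS arrays mostly below background. In wild type it was well above background on both DT arrays, at -2.78 and -3.62, and on neither PBS array. Gpr55, a lipid receptor, was not well above background on any PBS array and was at least 2.15-fold higher with DT (adjusted p = 0.0111). Such a bound sets the brighter group's mean against the dimmer group's after each dim value was raised to the lowest signal of any probe well above background on that array.

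Snx22, a sorting nexin, rose in ARF-DTR and not in wild type. It lay between -1.19 and -1.10 with PBS and between -0.24 and -0.03 with DT, a rise of 0.99 ± 0.12 (adjusted p = 0.000269). Wild type arrays were at -0.98 and -1.20 with PBS and at -1.10 and -1.45 with DT. Snx22 was 0.93 ± 0.15 above wild type PBS (adjusted p = 0.00798) and 1.11 ± 0.15 above wild type DT (adjusted p = 0.0065), both on the same slide.

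**Figure D1:**
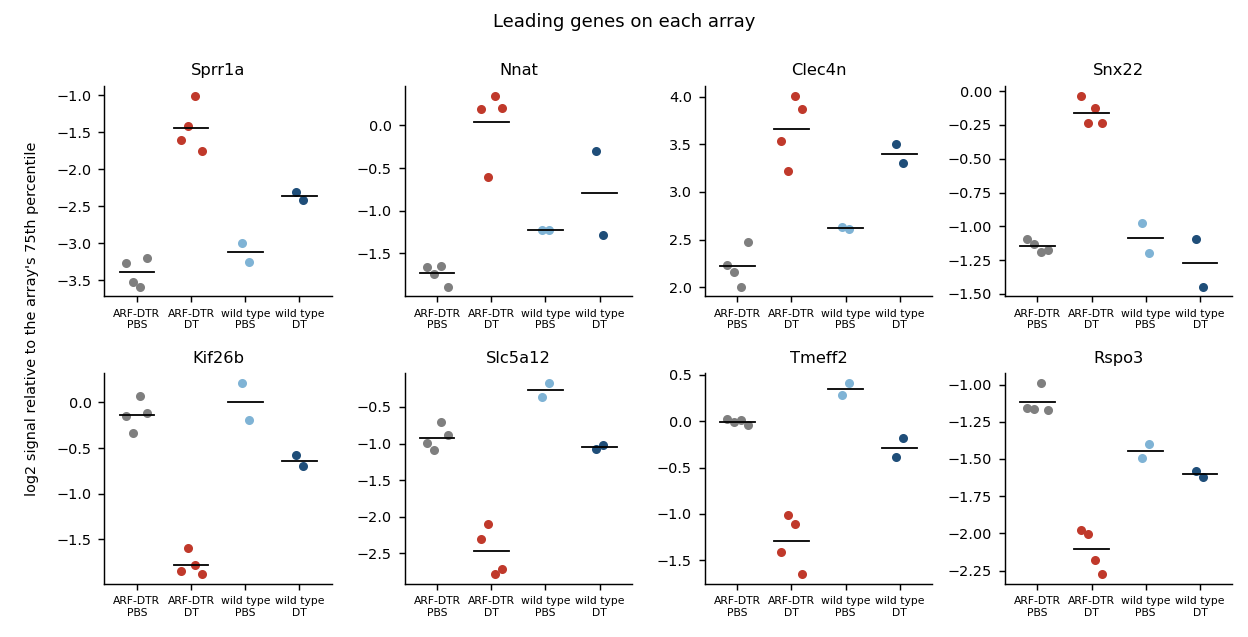
Log2 signal relative to the array's 75th percentile (vertical axis) of 8 genes on each array of 4 groups, with points for arrays and lines for group means. The 4 DT arrays of ARF-DTR lie above all other arrays for Sprr1a and Snx22, and below all other arrays for Kif26b, Slc5a12, Tmeff2 and Rspo3.

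Among the falls, those also seen within the slide were led by Kif26b, a kinesin-like protein. It lay at -0.15, -0.34, 0.07 and -0.12 with PBS and at -1.85, -1.60, -1.78 and -1.88 with DT, a fall of 1.64 ± 0.11 (adjusted p = 1.26e-06). Wild type PBS arrays were at 0.21 and -0.19 and wild type DT arrays at -0.58 and -0.70. The DT arrays of ARF-DTR thus lay below all others, by 1.79 ± 0.13 against wild type PBS (adjusted p = 9.83e-05). Slc5a12, a sodium-coupled lactate transporter, fell from between -1.08 and -0.71 to between -2.78 and -2.10, by 1.55 ± 0.14 (adjusted p = 2.25e-05), and lay at -0.36 and -0.17 in wild type with PBS. Tmeff2, a membrane protein with follistatin-like domains, was at -0.04 to 0.02 with PBS and at -1.65 to -1.02 with DT (-1.29 ± 0.12, adjusted p = 2.25e-05). Xpnpep2, a membrane aminopeptidase, fell by 1.22 ± 0.13 (adjusted p = 7.42e-05).

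Rspo3, which strengthens Wnt signals, lay between -1.17 and -0.99 with PBS and between -2.27 and -1.97 with DT. The groups did not overlap, the fall was 0.99 ± 0.07 (adjusted p = 4.5e-06), and wild type arrays lay between them at -1.62 to -1.40. Wif1, a secreted Wnt inhibitor, fell by 1.26 ± 0.15 (adjusted p = 0.000204), and by 1.13 ± 0.19 within the slide (adjusted p = 0.00798). Olig3, a transcription factor of the nervous system, fell by 1.88 ± 0.29 (adjusted p = 0.00089) and Slc35d3, of a family of nucleotide sugar transporters, by 1.54 ± 0.19 (adjusted p = 0.000252). Aoc1, which degrades histamine, was at 2.29 to 2.93 with PBS and at 0.87 to 2.05 with DT (-1.33 ± 0.32, adjusted p = 0.00808). Cd177, a surface protein of neutrophils, fell by 1.26 ± 0.20 in ARF-DTR (adjusted p = 0.0011), while wild type DT arrays (-0.72 and -0.24) lay above wild type PBS arrays (-1.39 and -1.43). The difference of these responses was -2.18 ± 0.35 (adjusted p = 0.00945). Of 22 neutrophil genes 1 rose and 1 fell.

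Most genes listed for a specialised capillary endothelial cell, marked by Ednrb and Car4, were lower with DT in this comparison. Of 14 measured genes of this list 8 fell and 2 rose, with a median of -0.45 against 0.004 over all genes, and 7 fell and 0 rose against wild type PBS of the same slide (median -0.39). Each of the 8 leave-one-out fits gave 8 or 9 falls, whereas 2 rises were called in the fit without DT replicate 1, 1 without PBS replicate 4 and 0 in the other 6. Within the slide 4 were lower when either wild type PBS array was left out. The mean level of the list was 2.69 to 2.77 with PBS and 2.18 to 2.35 with DT, without overlap. In wild type it was 2.66 and 2.68 with PBS and 2.42 and 2.43 with DT. The lungs were homogenised whole, so fewer cells of a type and less RNA per cell cannot be told apart, here and in all that follows. Ednrb, the endothelin B receptor, was read by 2 probes on chromosome 14 of the build mm9, and the 5′ 30 bases of each are printed because both probes carried the fall (the files give no exon or UTR for them).

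Ednrb probe 1, chr14:104214514-104214543, minus strand: aaggacgccccagatcttcaattttaagtt
Ednrb probe 2, chr14:104220900-104220929, minus strand: tataccctgatgacctgcgaaatgctcagg

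Ednrb by its brighter probe lay at 1.48, 1.32, 1.37 and 1.30 with PBS and at 0.17, 0.36, -0.06 and -0.07 with DT. The fall was 1.26 ± 0.10 or 2.4-fold (adjusted p = 5.6e-06), and the second probe gave -1.15 (adjusted p = 5.04e-05). Wild type arrays were at 1.40 and 1.43 with PBS and at 0.93 and 1.17 with DT. Within the slide, DT-treated ARF-DTR was lower than wild type PBS by 1.31 ± 0.12 (adjusted p = 0.000191) and lower than wild type DT by 0.95 ± 0.12 (adjusted p = 0.00376). Fibin, a secreted factor, lay at 3.51 to 3.72 with PBS and at 2.11 to 2.71 with DT (-1.20 ± 0.13, adjusted p = 7.08e-05), and at 3.82 and 3.85 in wild type PBS. Chst1, a sulfotransferase, fell by 0.65 ± 0.09 (adjusted p = 0.000438) and Tbx2, a transcription factor, by 0.52 ± 0.11 (adjusted p = 0.00453). Rprml fell by 0.83 ± 0.17 (adjusted p = 0.00387). The vessel peptide Apln fell by 0.53 ± 0.14 (adjusted p = 0.0136) and Kitl, the ligand of Kit, by 0.38 ± 0.07 (adjusted p = 0.00274). Under scaling to the array median, Apln and Kitl no longer passed, with -0.36 and -0.20. Chst1 was lower with DT in wild type too, at 2.27 and 2.57 against 3.00 and 3.13, a change of -0.64 ± 0.13 that did not pass (adjusted p = 0.0617).

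The 2 probes of Car4, the carbonic anhydrase that names the same cell, disagreed. By the brighter it lay at 4.71 to 5.47 with PBS and 4.70 to 5.30 with DT (-0.11 ± 0.17, adjusted p = 0.676), with 0.52 within the slide. The other probe, well above background on all 16 arrays, fell by 0.35 (adjusted p = 0.00261 over all probes) and gave -0.46 within the slide. Kdr, the main receptor of vascular endothelial growth factor, fell by 0.61 ± 0.10 (adjusted p = 0.000876), from between 4.62 and 4.73 to between 3.79 and 4.32, and a second probe gave -0.22 (adjusted p = 0.0704). Of 25 markers of vascular endothelium at large, 4 rose and 3 fell, against 15.9% and 13.5% of all genes. Their median was -0.05 and turned to 0.13 under scaling to the array median.

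**Figure D2:**
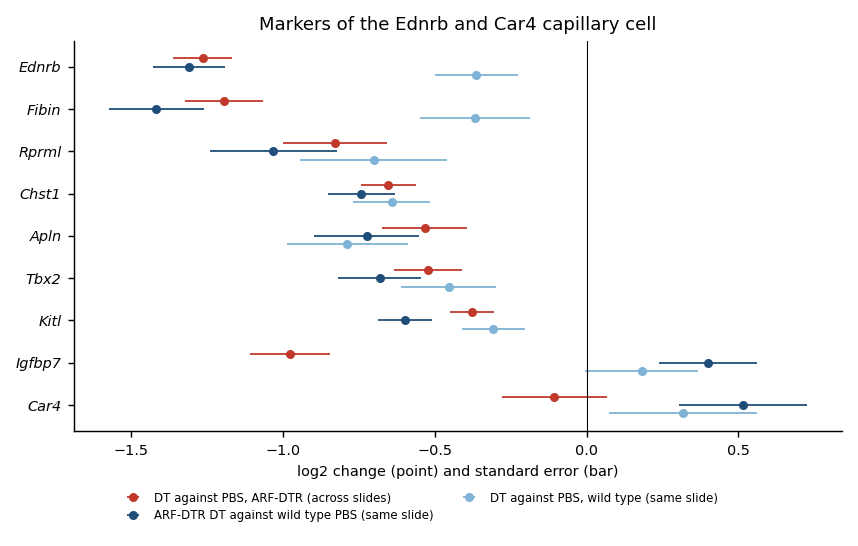
Log2 change (horizontal axis, point) with its standard error (bar) of 9 of the 14 measured capillary genes in 3 comparisons. DT against PBS in ARF-DTR spans slides and the other 2 lie within slide 2. The 9 genes were picked from the list and are all below 0 across slides. The 2 list genes called higher there, by at most 0.26, are not drawn. Ednrb and Fibin are more than 1 below 0 in both comparisons that involve DT-treated ARF-DTR, while Igfbp7 is lower across slides only.

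Ciliated cell genes were lower in DT-treated ARF-DTR than in both ARF-DTR PBS and wild type PBS. Of 34 measured genes, 15 fell and 0 rose (median -0.42), and 17 were lower and 0 higher against wild type PBS of the same slide (median -0.79). Without DT, 7 were higher and 1 lower in wild type PBS than in ARF-DTR PBS. In wild type DT against PBS 0 were called, but all 34 had a negative change (median -0.28). The wild type mean level was 2.12 and 2.02 with PBS and 1.855 and 1.69 with DT. DT replicate 1 had a mean level of 1.72, inside the PBS range of 1.70 to 1.91, while the other DT arrays were at 1.24 to 1.35. The number that fell was 19 without DT replicate 1, 8 without DT replicate 3, 7 without DT replicate 4 9 without PBS replicate 4 and 8 after scaling to the array median. Within the slide it was 0 and 2 when either wild type PBS array was left out, 11 without DT replicate 3 and 7 without DT replicate 4. Cdhr3, a cadherin of ciliated cells, fell by 1.05 ± 0.19 (adjusted p = 0.00179), from between 2.54 and 2.97 to between 1.38 and 2.12, and a second probe gave -0.45 (adjusted p = 0.0792). Hydin, of the central pair of the axoneme, fell by 0.78 ± 0.16 (adjusted p = 0.00426) and the dynein chain Dnaic1 by 0.55 ± 0.14 (adjusted p = 0.0126). Fam183b and the tektin Tekt1 were lower than in wild type PBS, by -1.05 ± 0.19 (adjusted p = 0.0101) and -0.99 ± 0.21 (adjusted p = 0.0188), and their changes against ARF-DTR PBS were -0.36 (adjusted p = 0.0877) and -0.30 (adjusted p = 0.2). Both within-slide calls were lost when either wild type PBS array was left out.

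Immediate early genes, which respond within minutes to stress and growth signals, fell in the direct comparison. Of 20, 10 fell and 0 rose (median -0.30), a count that was 6 without DT replicate 3 or 4 or without PBS replicate 2 or 3, and 4 fell and 2 rose after scaling to the array median. Within the slide 2 were lower and 2 higher, and 13 of 20 had a negative change (median -0.24). Zfp36, which destabilises cytokine transcripts, lay at 0.02, 0.27, -0.01 and -0.39 with PBS and at -1.70, -1.13, -1.58 and -1.57 with DT, a fall of 1.47 ± 0.15 (adjusted p = 4.56e-05). Wild type PBS arrays were at -1.01 and -0.70, and the within-slide change of -0.64 ± 0.18 did not pass (adjusted p = 0.0554). Fos, a subunit of AP-1, fell by 1.06 ± 0.29 (adjusted p = 0.0157) and by 1.82 ± 0.35 within the slide (adjusted p = 0.0144). Ccn1, a matrix protein induced by serum, fell by 0.79 ± 0.17 (adjusted p = 0.00497) and Dusp1, a phosphatase of MAP kinases, by 0.78 ± 0.13 (adjusted p = 0.00123). Egr1 was 0.86 ± 0.28 lower (adjusted p = 0.0339), a call lost in 5 of 8 leave-one-out fits, without PBS replicate 1, 2 or 3 or DT replicate 3 or 4, where its adjusted p reached 0.1.

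Contractile genes were lower as well. Of 20 genes of smooth muscle and pericytes 9 fell and 0 rose (median -0.31), and 4 fell without DT replicate 3 or 4 or PBS replicate 2, and 5 without PBS replicate 1 or after scaling to the array median. Within the slide 0 were lower and 1 was higher by the test, but 15 of 20 had a negative change (median -0.20). The mean level was 1.48 to 1.72 with PBS and 1.13 to 1.23 with DT, and in wild type 1.35 to 1.40 with PBS and 1.20 to 1.22 with DT. Acta2, the actin of smooth muscle, was at 5.14 to 5.46 with PBS and 4.55 to 4.77 with DT (-0.71 ± 0.17, adjusted p = 0.0084) and Tagln fell by 0.58 ± 0.14 (adjusted p = 0.00846). The striated actins Acta1 and Actc1 fell by 1.40 ± 0.21 (adjusted p = 0.000796) and by 1.25 ± 0.30 (adjusted p = 0.00891), and wild type PBS arrays were also low, with Acta1 at 0.44 and 0.49 and Actc1 at 4.55 and 4.84 against 5.14 to 5.87 in ARF-DTR PBS. Of 17 heart and skeletal muscle genes 2 rose and 2 fell by the test, but 15 had a negative change and the median was -1.21. Without DT the median was -1.14, with 15 negative, and within the slide it was 0.06. The mean level of the list was 0.92 to 1.90 with PBS, 0.22 to 0.95 with DT and 0.35 to 1.22 on the wild type arrays. The part of such muscle RNA in the other contractile genes was not tested. Of 18 B cell genes 5 fell and 0 rose, and 4 were lower within the slide, but the mean levels overlapped, at 0.26 to 0.99 with PBS and 0.20 to 0.57 with DT, and 3 fell without PBS replicate 3 or DT replicate 3, and 1 after scaling to the array median. Within the slide 0 to 2 were lower without any 1 of DT replicates 2, 3 and 4 and the wild type PBS arrays. Spib, a transcription factor of B cells and plasmacytoid cells, fell by 0.62 ± 0.15 (adjusted p = 0.0102).

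Surfactant genes rose in the direct comparison. Of 20 alveolar type 2 cell genes, 18 rose and 0 fell, with a median of 0.60, and 14 to 19 rose in the leave-one-out fits. The mean level was 5.31 to 5.54 with PBS and 5.81 to 6.08 with DT, without overlap. In wild type it was 5.75 and 5.54 with PBS and 6.08 and 5.62 with DT. There 0 genes were called with DT, but 17 of 20 had a positive change (median 0.20). Without DT, 3 were higher and 0 lower in wild type PBS than in ARF-DTR PBS (median 0.25). Within the slide the median was 0.35, with 1 gene called. Sftpd, a surfactant collectin, lay at 7.50, 7.38, 7.43 and 7.59 with PBS and at 8.44, 8.14, 8.48 and 8.34 with DT, a rise of 0.87 ± 0.10 or 1.83-fold (adjusted p = 0.000188). Wild type PBS arrays were at 8.15 and 7.85, and the within-slide change of 0.35 ± 0.13 did not pass (adjusted p = 0.127). Napsa, a protease that processes surfactant protein, rose by 0.82 ± 0.12 (adjusted p = 0.000496) and by 0.67 ± 0.14 within the slide (adjusted p = 0.0205). Sftpc rose by 0.50 ± 0.09 (adjusted p = 0.00181), but by 0.02 (adjusted p = 0.742) after quantile normalization, under which 11 genes of the list rose and 1 fell. Slc26a9, a chloride channel of airway epithelium, rose by 0.76 ± 0.17 (adjusted p = 0.0054).

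Alveolar type 1 cell genes moved less, with 10 rises and 1 fall among 20 and a median of 0.23, or 5 rises and 4 falls after quantile normalization. Within the slide 2 were higher and 0 lower (median 0.03). Without DT, 7 were higher and 1 lower in wild type PBS than in ARF-DTR PBS (median 0.15). Krt7 rose by 0.71 ± 0.09 (adjusted p = 0.000305) and Spock2, a matrix proteoglycan, by 0.58 ± 0.11 (adjusted p = 0.00313), with 0.61 ± 0.14 within the slide (adjusted p = 0.0269). Col4a3, a basement membrane collagen chain that alveolar type 1 cells make, was at 0.77 to 0.91 with PBS and 1.07 to 1.35 with DT (0.34 ± 0.09, adjusted p = 0.0145) and at 0.55 and 0.66 in wild type PBS. Col4a1 rose by 0.40 ± 0.11 (adjusted p = 0.0146), with an adjusted p of 0.0504 after quantile normalization. Of 20 collagens 4 rose and 2 fell, against 15.9% and 13.5% of all genes, and 5 were higher within the slide.

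Macrophage genes rose with DT in ARF-DTR lungs. Of 18 alveolar macrophage genes 10 rose and 0 fell (median 0.54), with 6 rises after quantile normalization. The mean level of this list was 3.07 to 3.67 with PBS and 3.52 to 3.98 with DT, with overlap. In wild type it was 3.37 and 3.27 with PBS and 4.15 and 3.69 with DT. There 0 genes were called with DT, but 17 of 18 had a positive change (median 0.48). Of 25 genes of interstitial macrophages and monocytes 9 rose and 1 fell (median 0.30), with 6 rises without DT replicate 3 or 4 or PBS replicate 2, and 4 were higher within the slide, or 0 to 1 without any 1 of DT replicates 1, 3 and 4 and the wild type PBS arrays. The mean level of the second list was 1.45 to 1.61 with PBS and 1.64 to 2.06 with DT, against 1.59 and 1.59 in wild type PBS and 1.87 and 2.04 in wild type DT. Clec4n, a C-type lectin that binds fungal mannans, lay at 2.24, 2.16, 2.01 and 2.48 with PBS and at 3.54, 3.22, 4.01 and 3.87 with DT, a rise of 1.44 ± 0.15 (adjusted p = 5.14e-05). It was 1.04 ± 0.18 above wild type PBS (adjusted p = 0.00964), and wild type arrays were at 2.61 and 2.63 with PBS and 3.31 and 3.50 with DT. The related lectin Clec4b1 rose by 1.23 ± 0.15 (adjusted p = 0.00025).

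Trem2, a lipid receptor of macrophages, was at 0.66 to 1.82 with PBS and at 1.85 to 2.69 with DT (1.23 ± 0.29, adjusted p = 0.00837). In wild type it was at 0.87 and 1.12 with PBS and at 1.82 and 3.17 with DT, a change of 1.50 ± 0.41 that did not pass (adjusted p = 0.158). Siglec1, the sialic acid receptor of resident macrophages, rose by 0.86 ± 0.16 (adjusted p = 0.00204) and changed by 0.88 ± 0.22 in wild type (adjusted p = 0.129). Ptx3, a soluble pattern receptor, rose by 1.24 ± 0.26 (adjusted p = 0.00407) and was not well above background on either wild type PBS array, so that DT-treated ARF-DTR was at least 3.92-fold higher within the slide (adjusted p = 0.0074). Fpr1, a receptor for bacterial peptides, rose by 0.99 ± 0.14 (adjusted p = 0.000505), Ms4a7 by 1.08 ± 0.24 (adjusted p = 0.00528) and the lipid carrier Apoe by 0.61 ± 0.08 (adjusted p = 0.000372). For these genes other than Ptx3 no difference between the DT responses of ARF-DTR and wild type passed the test, with values from -0.27 ± 0.51 for Trem2 (adjusted p = 0.794) to 0.66 ± 0.26 for Clec4n (adjusted p = 0.165), which does not show that they were alike.

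Genes of antigen presentation and complement rose in the direct comparison. Of 11 genes of MHC class II presentation 7 rose and 1 fell (median 0.51), and 1 was higher within the slide (median 0.25). Without DT, 3 were higher and 1 lower in wild type PBS than in ARF-DTR PBS (median 0.25). The mean levels of the list overlapped, at 3.10 to 3.39 with PBS and 3.38 to 3.78 with DT. In wild type they were 3.50 and 3.64 with PBS and 3.79 and 3.86 with DT. H2-Aa, a class II chain, was at 4.23 to 4.52 with PBS and at 5.43, 4.82, 5.43 and 5.47 with DT (0.94 ± 0.13, adjusted p = 0.000507), and Cd74, its invariant chain, rose by 0.70 ± 0.10 (adjusted p = 0.000593). Of 12 class I genes 8 rose and 0 fell, or 3 after quantile normalization, and within the slide 0 were called (median 0.14). Of 20 complement genes 9 rose and 2 fell (median 0.45), and within the slide 2 were higher and 0 lower (median 0.32). C1qa and C1qb, chains of the complement initiator C1q made by macrophages, rose by 0.73 ± 0.15 (adjusted p = 0.00403) and 0.79 ± 0.18 (adjusted p = 0.00721). Their wild type changes with DT were 0.67 ± 0.21 (adjusted p = 0.209) and 0.72 ± 0.26 (adjusted p = 0.256). Of 22 lectins and pattern receptors 9 rose and 0 fell, and of 17 dendritic cell genes 8 rose and 0 fell, with 5 without DT replicate 4 or PBS replicate 2 or 3. Within the slide 2 of the lectins and pattern receptors were higher and 0 lower (median 0.17). Of the dendritic cell genes 2 were higher there and 1 lower (median 0.315), and the 2 genes named next were called there. Clec9a, a receptor of cross-presenting dendritic cells, rose by 0.60 ± 0.09 (adjusted p = 0.000539) and Fscn1, an actin bundler of mature dendritic cells, by 0.77 ± 0.16 (adjusted p = 0.0037). Mt2, a metallothionein, rose by 1.20 ± 0.23 (adjusted p = 0.00261), and changed by 1.003 ± 0.326 in wild type (adjusted p = 0.214).

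Interferon-induced genes rose, most on 1 of the DT arrays. Of 35 measured genes 15 rose and 0 fell, with a median of 0.57, and 8 rose without DT replicate 3, 9 without PBS replicate 2, 31 after scaling to the array median and 23 with normexp. The mean level of the list was 2.22 on DT replicate 3, 1.43 to 1.54 on the other DT arrays, 0.84 to 1.15 with PBS, and 1.20 and 1.54 in wild type PBS. Within the slide 1 of the 35 was higher and 0 were lower (median 0.15). The promoters of these genes often hold the motif GAAANNGAA, the core of the element bound by interferon-activated factors. In RefSeq windows of the build GRCm38.p6, from 250 bases before to 50 bases after the start and on both strands, it was present in 18 of the 25 list genes with a window (72.0%), in 8 of the 10 of them that rose, and in 9.76% of 27025 genes. A match is a description of these letters only, and overlapping matches were merged. For genes described next, a window of 60 bases before the start is printed to show how the matches sit, with matches on either strand in capitals. The windows are placed around the match nearest to the start, which ends 58 bases before it in Isg15, 76 in Ifit1, 6 in Oas1a and 116 in Bst2.

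Isg15, chr4:156200851-156200910, minus strand: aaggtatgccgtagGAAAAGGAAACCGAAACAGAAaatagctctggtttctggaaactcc
Ifit1, chr19:34640779-34640838, plus strand: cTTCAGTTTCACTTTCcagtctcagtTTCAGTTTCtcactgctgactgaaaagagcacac
Oas1a, chr5:120907526-120907585, minus strand: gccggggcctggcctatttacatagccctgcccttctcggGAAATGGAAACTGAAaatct
Bst2, chr8:71537563-71537622, minus strand: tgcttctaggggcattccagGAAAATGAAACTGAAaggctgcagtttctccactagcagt

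Isg15, a ubiquitin-like protein, lay at 2.38, 2.26, 2.37 and 2.09 with PBS and at 3.27, 3.31, 4.53 and 3.46 with DT. DT replicate 3 was highest, and all 4 DT arrays were above the PBS arrays, by 1.37 ± 0.25 (adjusted p = 0.00192). Wild type PBS arrays reached 2.83 and 3.28, so that the within-slide change was 0.59 ± 0.30 (adjusted p = 0.278). Ifit1, which binds foreign RNA, rose by 0.94 ± 0.23 (adjusted p = 0.0088), Oas1a, a sensor of double-stranded RNA, by 0.85 ± 0.19 (adjusted p = 0.00647) and Bst2, which tethers budding viruses, by 0.81 ± 0.14 (adjusted p = 0.00141). Ifi44 rose by 1.09 ± 0.26 (adjusted p = 0.00856). Ifit3 rose by 0.79 ± 0.21 (adjusted p = 0.0137), but wild type PBS arrays at 3.09 and 3.23 lay above 3 of the 4 DT arrays, at 2.72, 2.82 and 2.86, and DT replicate 3 was at 3.84.

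**Figure D3:**
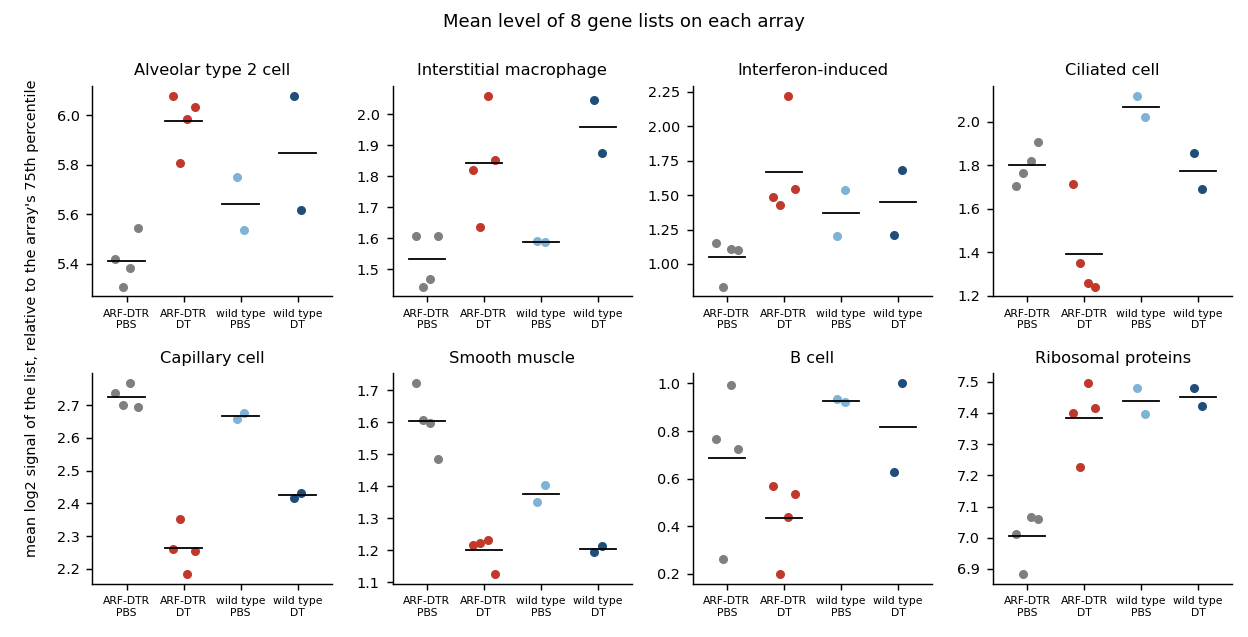
Mean log2 signal of 8 gene lists on each array (vertical axis, relative to the array's 75th percentile), with points for arrays and lines for group means. The 4 DT arrays of ARF-DTR do not overlap the 4 PBS arrays for capillary, smooth muscle, type 2 cell, interstitial macrophage, interferon and ribosomal genes, and for ribosomal genes they lie with the wild type arrays.

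Ribosomal protein genes rose nearly as a block across slides. Of 58, 56 rose and 0 fell, with a median of 0.38, and 0 were higher or lower against wild type PBS of the same slide (median -0.05). Without DT, 55 of the 58 were higher in wild type PBS than in ARF-DTR PBS (median 0.45). Rps18 lay at 5.07 to 5.42 with PBS, at 5.66 to 6.07 with DT and at 5.87 and 5.92 in wild type PBS, and Rpl3 rose by 0.47 ± 0.08 (adjusted p = 0.00175). After quantile normalization 12 of the 58 rose and 2 fell. The 23 proteasome genes had 18 rises and 0 falls in the direct comparison (median 0.27, with 6 rises after quantile normalization) and 0 calls within the slide, against 15 higher in wild type PBS than in ARF-DTR PBS.

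**Figure D4:**
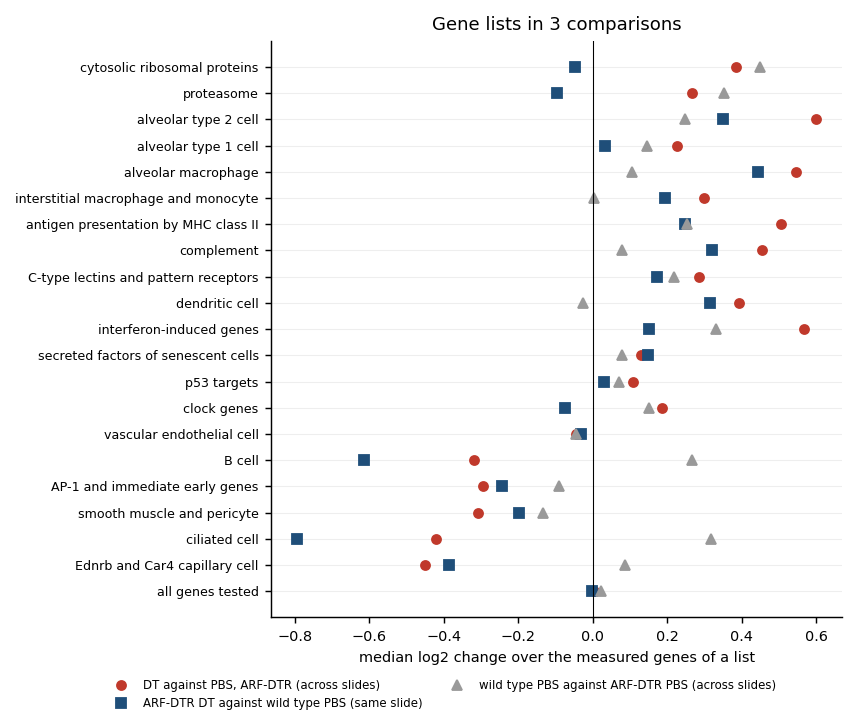
Median log2 change over the measured genes of 20 lists and of all genes (horizontal axis) in 3 comparisons. Ribosomal and proteasome genes lie above 0.2 in the comparisons across slides and at or below 0 within the slide. Capillary, ciliated, B cell, smooth muscle, immediate early and vascular endothelial genes lie below 0 in both comparisons that involve DT-treated ARF-DTR.

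Some of the largest falls were matched by wild type lungs of the second slide. Cox17, a copper chaperone of the respiratory chain, is shown by the first 30 bases of its 2 probes on chromosome 16 of mm9, since only the first was called.

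Cox17 probe 1, chr16:38352772-38352801, plus strand: ttctttggagaactttgataaatggataaa
Cox17 probe 2, chr16:38362195-38362224, plus strand: attccaattccaaacatggtatccctctgg

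By the first probe Cox17 lay at -1.50, -2.36, -2.41 and -2.22 with PBS and at -5.15, -5.17, -4.92 and -4.65 with DT, a fall of 2.85 ± 0.24 (adjusted p = 1.35e-05). The second probe gave -0.19 (adjusted p = 0.509). It was well above background on only 10 of 16 arrays, with a mean level of -5.42, so it could show little of a fall. By the first probe the wild type arrays were at -4.92 and -3.89 with PBS, where 1 of 2 was well above background. Within the slide Cox17 did not differ by the test (-0.57 ± 0.30, adjusted p = 0.286). Scnn1g, a subunit of the epithelial sodium channel, lay between 0.79 and 0.94 with PBS and between -1.39 and -0.56 with DT (-1.90 ± 0.17, adjusted p = 2.23e-05), and between -1.62 and -0.87 on all 4 wild type arrays. Igfbp7, a secreted factor of endothelium and of senescent cells, fell by 0.98 ± 0.13 (adjusted p = 0.000401), from between 1.44 and 1.75 to between 0.42 and 0.82, and was at 0.15 to 0.46 on the wild type arrays. Cdh17, a cadherin of gut epithelium, was not well above background on any DT or wild type array and was at least 2.39-fold lower with DT (adjusted p = 0.000106). With normexp background correction its change was -0.21 (adjusted p = 0.0673). Masp1, a protease of the lectin pathway, was well above background on 1 of 4 DT arrays and was 1.89 ± 0.27 lower (adjusted p = 0.000508), a size that rests on DT arrays mostly below background. A second probe, well above background on only 6 of 16 arrays, gave 0.53 (adjusted p = 0.753) and the mean of the probes -0.68 (adjusted p = 0.369). Pet100 and Sele, well above background on 3 PBS arrays each and on no DT array, were at least 1.33-fold and 1.55-fold lower, with adjusted p of 4.88e-05 and 0.00237. With normexp background correction their changes were 0.14 and 0.05.

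**Figure D5:**
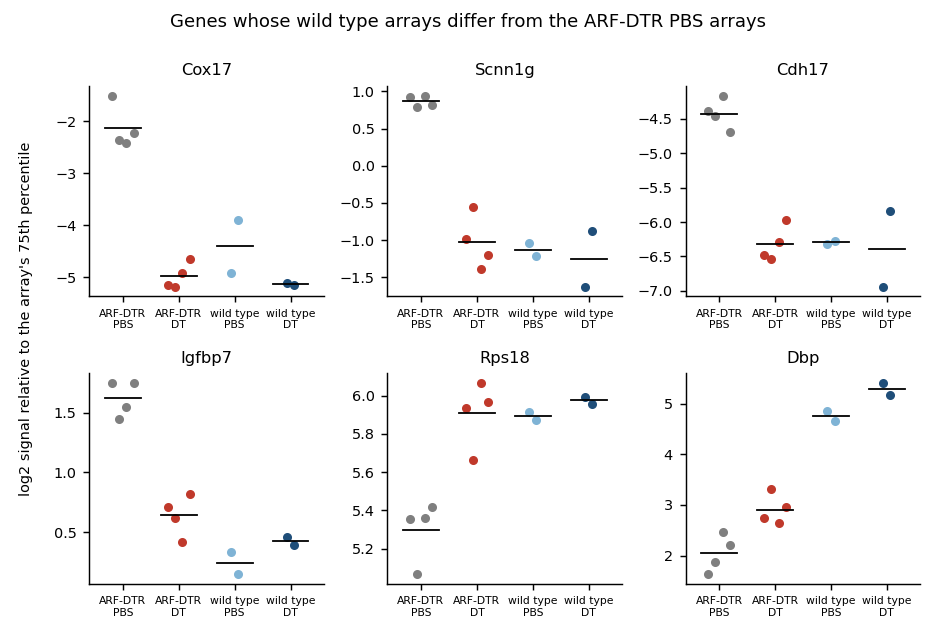
Log2 signal relative to the array's 75th percentile (vertical axis) of 6 genes on each array of 4 groups, with points for arrays and lines for group means. For Cox17, Scnn1g, Cdh17 and Igfbp7 the PBS arrays of ARF-DTR lie above all others, for Rps18 below all others, and for Dbp the wild type arrays lie above both ARF-DTR groups.

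More clock genes were called between wild type and ARF-DTR arrays than in DT against PBS of either genotype. Dbp, a transcription factor driven by the clock, lay at 1.64 to 2.46 with PBS, at 2.63 to 3.31 with DT, and at 4.67 to 5.41 on the wild type arrays. It rose by 0.86 ± 0.21 in the direct comparison (adjusted p = 0.00965) and was 1.86 ± 0.26 lower than wild type PBS within the slide (adjusted p = 0.00366). Of 19 clock genes 2 rose and 1 fell, 3 were higher and 4 lower than in wild type PBS, and 4 higher and 6 lower than in wild type DT. The hour at which lungs were taken is not given in the sources used here, and its part in these values was not tested.

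In wild type lungs DT changed 46 genes (0.18%), and 0 to 1 genes of each list above were called. In this design of 2 against 2 arrays, leaving out any array gave 74 to 232 calls. The DT response differed between ARF-DTR and wild type for 538 genes (2.1%), 217 higher and 321 lower, with 226 to 1109 calls when 1 array was left out, and 1472 higher and 376 lower with normexp. This difference contains that between the slides, since only the ARF-DTR groups lay on different slides. Upp1, a uridine phosphorylase, rose from between 0.62 and 0.85 to between 1.25 and 1.56 in ARF-DTR (0.71 ± 0.09, adjusted p = 0.000242) and lay at 1.18 and 1.38 with PBS and 0.84 and 1.05 with DT in wild type, a difference of responses of 1.05 ± 0.15 (adjusted p = 0.00592). Plaur, the urokinase receptor and a surface protein of some senescent cells, rose in wild type by 0.63 ± 0.10 (adjusted p = 0.0283) and changed by -0.18 ± 0.07 in ARF-DTR (adjusted p = 0.0691), a difference of -0.81 ± 0.12 (adjusted p = 0.00676). A contrast added after seeing the data set DT-treated ARF-DTR against DT-treated wild type on the same slide, where 150 genes (0.587%) were higher and 77 (0.301%) lower. Their number was 78 to 297 when 1 array was left out. Across all 3 comparisons of DT-treated ARF-DTR, 10 genes were higher and 24 lower throughout. These comparisons share the DT arrays of ARF-DTR, so their agreement is partly built in and none is separate support for another. Snx22 was among the higher, and Ednrb, Fibin, Kif26b, Slc5a12, Tmeff2, Xpnpep2, Rspo3, Cd177, Egr1 and Ccn1 were among the lower. Of these, Egr1 lost its direct call in 5 of 8 leave-one-out fits. Cd177 lost its within-slide call without DT replicate 2, 3 or 4.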

How the data were processed

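Lung RNA was measured on 16 Agilent arrays of 1 colour, of which 8 make up the comparison. The deposited scanner files hold intensity per spot, background-corrected by the authors with Feature Extraction 10.10.1.1 per the submitters' processing notes. The deposited series table holds log2 values that differed from the log2 values computed here by a median of 0.0067, and served as an alternative. Spots of a probe were averaged after outlier spots were left out, log2 intensity was taken minus each array's 75th percentile, and 37037 of 55681 probes were kept, those that passed the scanner's background test on 4 or more of the 16 arrays. The brightest probe stood for a gene. All 16 arrays entered a limma 3.58.1 fit (R 4.3.3) with Benjamini-Hochberg adjustment over 25574 genes and a threshold of 0.05. On simulated data the direct comparison recovered 80% of genes changed 2-fold and 58.2% of those changed 1.5-fold, and the within-slide comparison 73.5% and 45.5%. False calls made up 2.83% and 5.68% of the calls in the direct and 5.77% and 6.51% in the within-slide comparison. In these data 200 of 25525 genes were changed, noise was independent between genes and there was no slide difference. The simulation therefore does not cover the slide difference or the larger share of genes called here. Alternatives covered scaling, background, filter, block, probes and left-out arrays.

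The genes and lists were chosen with earlier results of these data known. Named genes were the study genes, those with the largest rises and falls at least 2-fold without overlap, those also called within the slide, the first 3 and up to 4 largest called members of each list, and genes whose DT response differed between genotypes. Rspo3, Tbx2, Kitl, Chst1, Dnaic1, Fam183b, Tekt1, Ccn1, Ifit3, Clec9a, Apoe, Csf2, Plaur, Igfbp3, Rpl3 and Col4a3 lie outside this rule and were chosen after their values were seen.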

Additional observations from a re-analysis of the deposited data

Results flagged for a closer look

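In 242 groups of 4 arrays, 22 had an array whose gap to the other 3 was above Dixon's 95% critical share of the group's range, and chance flags about 1 in 20 groups. DT replicate 3 stood high for Isg15 (4.53), Oas1a (3.95), Ifi44 (1.36), Ifit1 (1.45) and Ifit3 (3.84), and for the mean levels of the interferon (2.22) and complement (3.12) lists. DT replicate 2 stood low for Nnat (-0.60), Dnajc24 (1.54), H2-Aa (4.82) and Ms4a7 (1.86), and high for Masp1 (-5.24). DT replicate 4 stood low for the smooth muscle list (1.13). PBS replicate 4 stood low for Eef2 (6.01), Acta2 (5.14) and Masp1 (-4.69), and high for Cd9 (6.16). PBS replicate 3 stood high for Rspo3 (-0.99) and low for Clec9a (-1.05). PBS replicate 2 stood low for the interferon (0.84) and MHC class II (3.10) lists, and PBS replicate 1 high for the dendritic cell list (0.81).

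The response to DT differed between ARF-DTR and wild type by the limma test of the difference for 15 of the named genes, and this difference contains that between slides. It was positive for Upp1 (1.05), Snx22 (1.17) and Bbc3 (0.85). It was negative for Ednrb (-0.90), Kif26b (-0.99), Cd177 (-2.18), Rspo3 (-0.83), Igfbp7 (-1.16), Zfp36 (-1.26) and Plaur (-0.81). It was also negative for Cox17 (-2.13), Scnn1g (-1.78), Cdh17 (-1.80), Pet100 (-2.33) and Masp1 (-2.17), and for Cdh17, Pet100 and Masp1 no wild type array was well above background, so these sizes are not firm.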

How the results depend on the processing

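The direct comparison gave 5385 to 7752 calls when 1 array was left out. Its strong rises numbered 38 to 106 in those fits, 151 after scaling to the array median, 88 after quantile normalization, 30 with normexp and 38 with probes well above background on all 16 arrays. Its strong falls numbered 189, 219, 72 and 161 under the same 4 settings. The within-slide comparison gave 202 to 1245 calls with 1 array left out and 368 with only the compared arrays fitted. The comparison without DT gave 2318 to 5759 calls with 1 array left out. In wild type, DT gave 74 to 232 calls with 1 array left out, 28 after scaling to the median, 20 with normexp, 26 with the strict probe filter and 0 with only the compared arrays. The difference of responses gave 226 to 1109 calls with 1 array left out, 288 without a probe filter and 1848 with normexp. The added comparison with wild type DT gave 78 to 297, 3544 without a filter, 124 with normexp, 6 with only the compared arrays and 90 with the replicate block. ARF-DTR samples of the same replicate number shared a column position on their slides, and their deviations correlated at 0.10, 0.33, -0.06 and 0.05, so the number was not taken as a pairing. With the replicate number as a block the direct comparison gave 7412 calls, the within-slide comparison 944, the comparison without DT 5632, wild type 66 and the difference of responses 515.

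With normexp the changes of Pet100 and Sele turned to 0.144 and 0.054. The median of the senescence list turned to -0.021 after quantile normalization and that of the vascular endothelial list to 0.133 after scaling to the median. The cause of these shifts was not tested. Slide and DT cannot be told apart in the direct comparison, nor row and group within slide 2.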
